A study of Mus musculus with 48 samples.

Results

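The genes described here encode the enzymes that write and erase histone marks, the enzymes that methylate and oxidise cytosine in DNA, and the subunits of SWI/SNF-type nucleosome remodelling complexes. They were chosen by symbol alone: genes named Kmt, Setd, Ezh, Prmt, Kdm, Hdac, Sirt, Kat, Dnmt, Tet, Smarc or Arid and numbered within those families, with Kdm5c and Kdm5d left out, present in both bulk RNA tables. This gave 97 genes of the 34476 gene rows that both tables hold. They were 18 lysine methyltransferases, 8 arginine methyltransferases, 16 demethylases, 18 deacetylases, 7 acetyltransferases, 7 DNA methylation genes and 23 remodelling genes. A name is not a proof of function. Setd3 is known as a methyltransferase of actin, Sirt3, Sirt4 and Sirt5 are mitochondrial proteins, and most Arid and several Smarc proteins bind DNA or hold a complex together without being enzymes.

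Histone acetylation by Kat enzymes and its removal by Hdac and Sirt enzymes, together with lysine and arginine methylation, set how open a stretch of chromatin is. Ezh2 and its close relative Ezh1 are the catalytic subunits of Polycomb repressive complex 2, which methylates lysine 27 of histone H3, and Kdm6a and Kdm6b remove that mark. Dnmt1 copies DNA methylation onto the new strand at replication, Dnmt3a and Dnmt3b set it anew, and the Tet enzymes begin its removal. In T cells these genes are best known for holding naive cells quiescent and for fixing effector and helper fates after activation.

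All cells came from FVB/N mice, and no group is labelled with a transgene or a deletion. The first set held sorted thymic invariant natural killer T (iNKT) cells of 3 sublineages, iNKT1, iNKT2 and iNKT17, each with 2 bulk RNA libraries and 2 ATAC libraries, which measure how accessible chromatin is. The second set held conventional donor CD4 and CD8 T cells from spleen and peripheral lymph nodes, each sorted before transplantation (day 0) or on day 7 after transfer into BALB/c hosts in a major mismatch model of graft-versus-host disease (GVHD). The day 7 hosts were left untreated or had received iNKT1, iNKT2 or iNKT17 cells, with 3 RNA libraries in each of these 10 groups. Single-cell RNA counts were also used, from the whole thymic iNKT pool of 2 mice that were 8 weeks old. The labels do not say that bulk replicates came from separate animals, so p-values measure the spread between libraries, which may be technical. The ages of the other mice and the conditioning of the hosts are not given in the sources used here.

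Counts per library ran from 26811373 to 33688697 for iNKT RNA, from 25323879 to 37055182 for CD4, from 26134241 to 33658426 for CD8 and from 13299586 to 42964216 for ATAC. Levels are given as CPM, counts scaled to a common library total, which are not corrected for gene length, so they are compared between libraries and never between genes. In bulk RNA, fewer cells of a type and less RNA per cell cannot be told apart. Differences were tested with edgeR's quasi-likelihood test, and a gene was called at a Benjamini-Hochberg adjusted p under 0.05 over all features tested. Of the 97 genes, 93 passed the low-count filter in donor T cells and 89 in iNKT cells. Arid3c, Dnmt3l, Prmt8 and Smarca1 failed it in both, and Hdac9, Kdm4d, Kdm8 and Smarcd3 failed it in iNKT cells only.

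Some libraries stood apart in ways that the groups did not explain. Among the 15 CD4 libraries, 5 separated on the second principal component, which held 13.2% of the variance: replicate 3 of day 0, of the untreated group and of the iNKT17 group, and replicates 1 and 3 of the iNKT2 group. In these 5, Actb, the cytoskeletal actin gene, lay between 3853 and 7836 CPM, against 11556 to 14106 CPM in the other 10, and 15 of the 93 tested genes were lower in all 5 than in any of the 10 (Kmt2a, Setd2, Tet2 and Tet3 among them) while 3 were higher. The share of all genes separated in this way is not given here. The 5 were picked on expression values of these same libraries. The sample titles carry 2 prefixes, with 2 libraries of each donor T cell group under one and 1 under the other. The table's columns carry no prefix, so the part of the prefix in this separation was not tested. The CD4 calls at day 7, in total and by class, and some single CD4 results are therefore also given without these 5. Other CD4 results rest on all libraries. Day 0 libraries also held RNA of other cell types: summed erythroid and platelet markers were 2469 to 6943 CPM in CD4 and 461 to 589 CPM in CD8 at day 0, against 12.99 to 30.1 and 10.7 to 34.7 CPM in untreated day 7 cells. Summed B and plasma cell markers fell between the same groups from between 532 and 606 to between 53.3 and 69.1 CPM in CD4 and from between 215 and 771 to between 31.8 and 39.3 CPM in CD8. Summed myeloid markers went from between 871 and 978 to between 225 and 244 CPM in CD4 and from between 530 and 1761 to between 207 and 363 CPM in CD8. The sums hide members that rose. Of 13 tested myeloid rows, 4 were called higher and 7 lower at day 7 in CD4, and 5 and 7 in CD8, with Elane and Mpo higher in both. Of 10 erythroid and platelet markers, 0 were called higher and 7 lower in CD4, and 1 (Car1) and 5 in CD8. The part of these cells in the changes below was not tested, except as one CD8 result states.

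By day 7 the transferred T cells had shifted a large share of their chromatin enzyme genes, with more of them falling than rising. In CD8 cells 21 genes rose and 42 fell of 93 tested (67.7%), and in CD4 cells 13 rose and 19 fell (34.4%). Ezh2, Dnmt1, Dnmt3b, Hdac3, Hdac6 and Kdm8 rose in both, while Tet1, Kdm6b, Smarca2, Arid4a and Hdac9 fell in both. Of all genes tested, 60.7% were called in CD8 (30.9% higher, 29.8% lower) and 35.6% in CD4 (17.4% higher, 18.2% lower). The share of the chromatin genes called in CD4 was thus near that of all genes, and the median log2 fold change was -0.11 for the tested members and -0.08 for all genes. In CD8 the share called lower was above that of all genes, and the medians were -0.25 and -0.05. Class counts below are descriptions to be read beside these shares of all genes, and no class was tested as a set. The comparisons of CD4 and CD8 share no library, but sample titles of CD4 and CD8 libraries match, so the comparisons may not be independent. In both, 28 genes were called, all in the same direction (10 higher, 18 lower). These were 87.5% of the CD4 calls and 44.4% of the CD8 calls. Arid5a, Hdac2, Kdm2b and Sirt6 were called in CD4 only. Without the 5 CD4 libraries that stood apart, 57 genes were called in CD4 (24 higher, 33 lower, 61.3%, against 47.6% of all genes), of which 43 were also called in CD8 in the same direction. For neither overlap is the share over all genes given here, so neither is shown to be particular to these genes. By class, higher and lower CD4 calls without those 5 libraries were 5 and 6 of 18 lysine methyltransferases and 2 and 2 of 7 arginine methyltransferases. They were 5 and 4 of 16 demethylases, 5 and 5 of 18 deacetylases and 0 and 5 of 7 acetyltransferases. For DNA methylation genes they were 2 and 3 of 6, and for remodelling genes 5 and 8 of 21. The CD4 class counts below use all libraries unless stated.

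**Figure D1:**
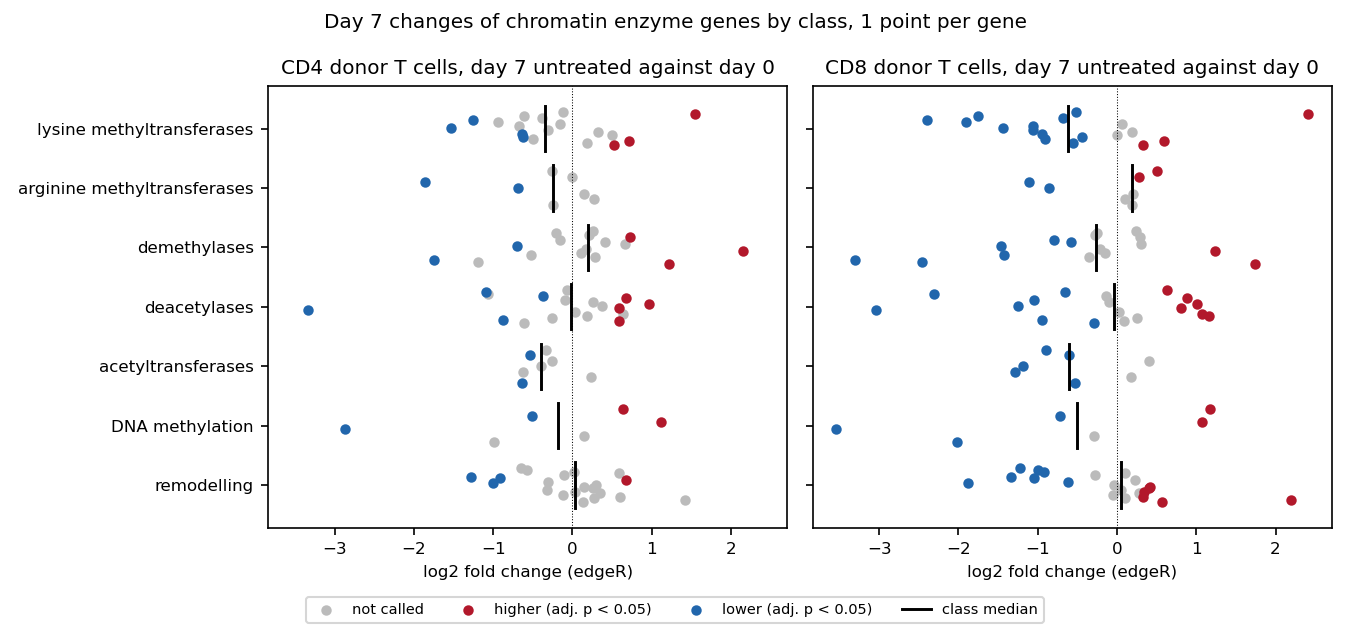
Log2 fold change of each tested gene between untreated day 7 and day 0 donor T cells (x axis) by class (y axis), for CD4 (left) and CD8 (right). Each point is 1 gene, coloured by edgeR call, and the black bar is the class median. In CD8, 12 of 18 lysine methyltransferases and 5 of 7 acetyltransferases lie among the lower calls, and no acetyltransferase lies among the higher calls in either cell type.

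Ezh2 was the member with the smallest p in both cell types. Its levels were 23.7, 21.4 and 24.8 CPM in the 3 day 0 CD4 libraries and 64.9, 73.6 and 66.3 CPM in untreated CD4 cells at day 7. In CD8 they went from 15.9, 17.4 and 21.8 CPM to 102, 99.0 and 93.3 CPM. Every day 7 library stood above every day 0 library. The log2 fold change was 1.55 ± 0.13 (SE) in CD4 (edgeR adjusted p = 5.6e-07) and 2.42 ± 0.13 in CD8 (adjusted p = 4.88e-10). Day 7 and day 0 groups without overlap, in either direction, were common. This held for 41 of 93 tested members in CD4 (44.1%, and 47.2% of all genes) and 67 in CD8 (72.0%, and 67.1%). Dnmt1, the maintenance DNA methyltransferase, stood at 197, 208 and 111 CPM in CD4 at day 0 and at 251, 294 and 258 CPM at day 7, and at 173, 168 and 185 CPM against 359, 433 and 395 CPM in CD8. Both groups were fully separated, and the log2 fold changes were 0.64 ± 0.21 (adjusted p = 0.0262) and 1.17 ± 0.12 (adjusted p = 1.02e-06). Without untreated replicate 2 the CD4 call of Dnmt1 was lost (adjusted p = 0.0849). Genes of the cell cycle, the setting in which DNA methylation is copied, rose alongside: 27 of 28 listed cell cycle genes were called higher in CD4 and 28 of 28 in CD8. Their summed level went from between 789 and 1112 CPM to between 2561 and 3436 CPM in CD4 and from between 974 and 1101 CPM to between 5986 and 7005 CPM in CD8. The part of cycling in the changes of Ezh2 and Dnmt1 was not tested.

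Because Ezh2 and Dnmt1 moved with the cell cycle genes, the RefSeq promoters (250 bases before to 50 bases after an annotated start, build GRCm38.p6) were searched on both strands for the letters TTTGGCGC, TTTCGCGC, TTTCCCGC and TTTGCCGC, forms of the site of E2F, the factor family that drives S phase genes. These 4 words share their first 3 and last 3 letters and differ in the 2 between, so no 2 can match at the same place on one strand. Windows were found for 81 of the 97 genes (110 windows), and 6 windows (5.45%), 1 each at 6 genes, held such letters, against 744 of all 32851 windows (2.26%). Those of Ezh2 and Dnmt1 are shown because both genes rose in both cell types, with the matching letters in capitals and read 5′ to 3′ along the gene's strand.
Ezh2, chr6:47595009-47595038, minus strand: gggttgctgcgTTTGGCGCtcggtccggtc
Dnmt1, chr9:20952824-20952853, minus strand: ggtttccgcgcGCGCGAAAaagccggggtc
Dnmt1, chr9:20952574-20952601, minus strand: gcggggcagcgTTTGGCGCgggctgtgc
In Ezh2 the letters begin at base 4 of the transcript. In Dnmt1 they lie 219 bases before the start, on the opposite strand, and again from base 34 of the transcript. The other 4 genes with such letters did not share a direction in CD8: Arid1a and Kat2a fell, Sirt4 was not called, and Smarcd1 was called higher (0.32 ± 0.13, adjusted p = 0.041) with overlapping groups, a call lost without day 0 or untreated replicate 2 or 3 (adjusted p up to 0.174). The letters of the 3 called genes are shown for contrast.
Smarcd1, chr15:99702145-99702174, plus strand: gtcagcacgccTTTCCCGCtagtcgccccc
Arid1a, chr4:133754022-133754051, minus strand: tccctccctccTTTCCCGCcccctccccct
Kat2a, chr11:100712508-100712537, minus strand: aaggatgggaaGCGGCAAAggaagactacg
The letters TTTGAA, the cell cycle homology element, were in 12 member windows (10.9%) and in 17.9% of all windows. A match describes the letters of a window only.

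Partners of these enzymes were counted in the same fits, in which 35.6% of all genes were called in CD4 and 60.7% in CD8. Of 10 listed DNA methylation partners, 5 rose and 2 fell in each cell type, and Uhrf1, Hells, Tdg and Apobec3 rose in both. Uhrf1, which guides Dnmt1 to new DNA, rose by a log2 fold change of 3.20 ± 0.21 in CD4 and 3.34 ± 0.14 in CD8, and the remodeller Hells by 1.72 ± 0.20 and 2.37 ± 0.16. Tdg, the glycosylase that removes oxidised methylcytosine, rose by 1.58 ± 0.17 and 1.62 ± 0.11. Of 25 Polycomb partners, 2 rose and 6 fell in CD4 and 5 rose and 10 fell in CD8. Phf19, a Polycomb accessory subunit, rose by 1.35 ± 0.34 and 2.08 ± 0.20. The Polycomb partners thus moved both ways, and their share called was near that of all genes in CD8 and not above it in CD4.

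Lysine methyltransferases were the class with the lowest median in CD8. There 3 of 18 rose and 12 fell (median log2 fold change -0.62), against 3 and 4 in CD4 (median -0.35). Kmt2a, Kmt2b, Kmt2c and Kmt2d, large methyltransferases of histone H3 lysine 4, were all called lower in CD8, Kmt2b not without untreated replicate 1 or 3 (adjusted p up to 0.053). Kmt2c stood at 119, 73.5 and 130 CPM in CD8 at day 0 and at 11.1, 32.3 and 17.3 CPM at day 7 (log2 fold change -2.40 ± 0.38, adjusted p = 8.67e-05). Kmt2a went from 89.7, 71.6 and 78.4 CPM to 15.04, 35.7 and 20.1 CPM (-1.76 ± 0.35, adjusted p = 0.000601). In both genes the groups did not overlap, and untreated replicate 2 was the highest of the day 7 libraries. That library also held the most Actb of its group, at 17445 CPM against 8912 and 9848 CPM. In CD4, Kmt2a stood at 75.7, 81.3 and 25.9 CPM at day 0 and at 53.5, 39.6 and 26.9 CPM at day 7, which was not called (-0.61 ± 0.49). Kmt2c was called lower in CD4 (-1.26 ± 0.40, adjusted p = 0.0242), but the call was lost when day 0 replicate 1 or 2 or untreated replicate 1 or 3 was left out (adjusted p up to 0.104). For Kmt2a, Kmt2c, Setd2 and Tet3 alike, the 5 CD4 libraries with low Actb held the lower values within their groups, as the plot of these genes against Actb shows. Without these 5, Kmt2c changed by -1.36 (adjusted p = 3.42e-05), Tet3 by -1.16 (adjusted p = 0.000419) and Kmt2a by -0.74 (adjusted p = 0.0525). Setd8, the only writer of the first methyl group on lysine 20 of histone H4 and itself tied to the cell cycle, rose in both cell types, by 0.71 ± 0.21 in CD4 and 0.59 ± 0.09 in CD8. Ezh1 was called lower in CD8 only (-0.51 ± 0.12), and its level in CD4 was 162, 163 and 151 CPM at day 0 against 134, 143 and 163 CPM at day 7. Suv39h2, a methyltransferase of histone H3 lysine 9 from the list of other methyltransferases and scaffolds, rose by 1.82 ± 0.23 and 2.64 ± 0.23. In that list 2 rose and 2 fell in CD4 and 6 rose and 6 fell in CD8, of 16 tested.

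**Figure D2:**
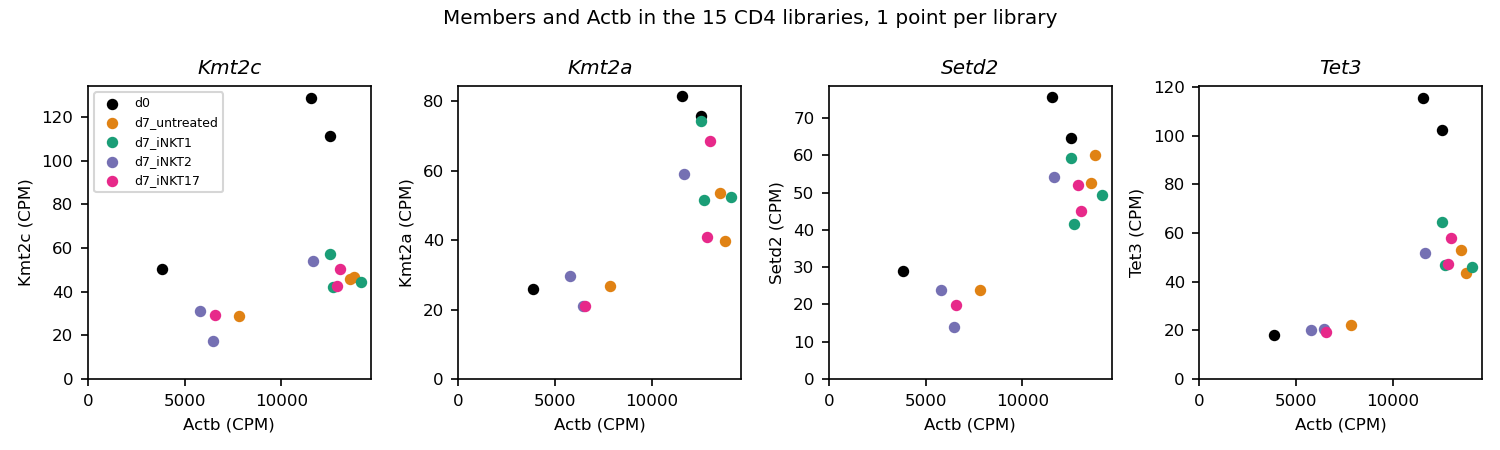
Levels of Kmt2c, Kmt2a, Setd2 and Tet3 (y axes, CPM) against Actb (x axis, CPM) in the 15 CD4 libraries, 1 point per library, coloured by group. The 5 libraries with Actb at or under 7836 CPM sit at the left, with Kmt2a, Setd2 and Tet3 below all of the other 10.

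Among the demethylases 2 of 16 rose and 6 fell in CD8, and 3 rose and 2 fell in CD4. Kdm6b, which removes the methyl mark that Ezh2 sets, stood at 9.40, 7.59 and 7.13 CPM in CD4 at day 0 and at 3.18, 1.74 and 2.28 CPM at day 7. In CD8 it went from 12.6, 10.9 and 11.1 CPM to 1.03, 1.58 and 0.846 CPM. The log2 fold changes were -1.74 ± 0.29 (adjusted p = 0.000293) and -3.31 ± 0.34 (adjusted p = 7.41e-07). Kdm6a, which acts on the same mark, was not called in either (0.29 ± 0.31 in CD4, -0.35 ± 0.15 in CD8). Kdm8 went the other way: 6.61, 5.02 and 6.65 CPM became 13.6, 13.6 and 15.2 CPM in CD4, and 5.00, 4.85 and 5.65 CPM became 19.6, 15.9 and 16.2 CPM in CD8 (log2 fold changes 1.21 ± 0.17 and 1.74 ± 0.16). Kdm4b, an eraser of the histone H3 lysine 9 mark, fell in both, by -0.70 ± 0.16 and -1.46 ± 0.16. Kdm7a was called lower in CD8 (-2.47 ± 0.35, adjusted p = 3.15e-05). In CD4 Kdm7a stood at 104, 108 and 30.8 CPM against 41.2, 43.0 and 22.3 CPM, was not called (-1.19 ± 0.55), and was called without the 5 libraries apart (-1.32, adjusted p = 3.56e-05).

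The 18 deacetylases split nearly evenly, with 6 higher and 7 lower in CD8 and 4 and 4 in CD4. Hdac3, the catalytic subunit of the NCoR and SMRT corepressor complexes, rose from 73.2, 64.9 and 90.8 CPM to 111, 120 and 134 CPM in CD4 and from 76.2, 77.2 and 79.4 CPM to 152, 132 and 144 CPM in CD8 (0.67 ± 0.15, adjusted p = 0.00239, and 0.88 ± 0.10, adjusted p = 2.18e-06). Hdac6, a cytoplasmic deacetylase of tubulin, rose by 0.97 ± 0.15 and 1.005 ± 0.15. The class IIa enzymes, which travel between nucleus and cytoplasm, went down where they were called. Hdac9 stood at 3.28, 3.48 and 3.63 CPM in CD4 at day 0 and at 0.303, 0.361 and 0.357 CPM at day 7, and at 3.24, 3.98 and 1.98 CPM against 0.225, 0.465 and 0.423 CPM in CD8. Its log2 fold changes were -3.33 ± 0.52 and -3.03 ± 0.49, at low levels throughout. Hdac7 and Hdac4 were called lower in CD8 only (-1.25 ± 0.26 and -1.05 ± 0.17). Hdac10 fell in both, by -1.10 ± 0.17 and -0.66 ± 0.13. Of the sirtuins, Sirt5 fell in both (-0.88 ± 0.16 and -0.94 ± 0.16), while Sirt2 and Sirt3 were called higher in CD8 (1.07 ± 0.12 and 1.16 ± 0.15). Sirt1 was not called in either, at 0.04 ± 0.23 and 0.02 ± 0.11. Among 16 listed subunits of deacetylase corepressor complexes, 5 rose and 3 fell in CD4 and 4 rose and 6 fell in CD8. Mbd2, a reader of methylated DNA in the NuRD complex, rose by 1.21 ± 0.12 and 1.21 ± 0.09, and Chd3, a NuRD remodeller, changed by -1.70 ± 0.27 and -2.77 ± 0.27.

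No acetyltransferase was called higher, in a class of only 7 genes that was not tested as a set. In CD8 5 of 7 fell (median -0.61), and in CD4 2 of 7 fell (median -0.40), or 5 of 7 without the 5 libraries apart. Kat2b and Kat8 fell in both, though Kat2b lost its CD4 call without day 0 or untreated replicate 1 or 2 (adjusted p up to 0.105). Kat8, which acetylates lysine 16 of histone H4, stood at 40.7, 37.5 and 33.6 CPM against 27.8, 23.0 and 21.1 CPM in CD4 (-0.64 ± 0.15, adjusted p = 0.00362) and at 33.7, 33.4 and 34.8 CPM against 19.1, 26.7 and 24.8 CPM in CD8 (-0.53 ± 0.13, adjusted p = 0.00307). Kat2a, Kat6a and Kat6b were called lower in CD8 (-0.89 ± 0.13, -1.19 ± 0.25 and -1.29 ± 0.34). Among 16 other acetyltransferases and readers of acetylated histones, none rose and 5 fell in CD4, and 2 rose and 11 fell in CD8. One of the 2 was Hat1, which acetylates newly made histone H4 (1.09 ± 0.13).

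The DNA methylation genes moved both ways. Dnmt1 and Dnmt3b rose, while Dnmt3a and Tet1 fell, in both cell types. Dnmt3b stood at 10.4, 11.5 and 5.79 CPM against 19.6, 19.9 and 20.6 CPM in CD4 and at 12.4, 9.29 and 11.7 CPM against 20.7, 23.3 and 26.4 CPM in CD8 (1.12 ± 0.23 and 1.08 ± 0.16). Dnmt3a stood at 71.6, 64.6 and 51.4 CPM against 48.5, 42.2 and 41.3 CPM in CD4, and at 59.3, 50.6 and 64.3 CPM against 32.9, 41.2 and 32.2 CPM in CD8. Its change was -0.51 ± 0.19 in CD4 (adjusted p = 0.0497), a call lost in 5 of 6 fits that left out 1 library, all but the fit without day 0 replicate 3 (adjusted p up to 0.197), and -0.71 ± 0.13 in CD8 (adjusted p = 0.000271). Tet1 fell further: 15.2, 17.9 and 7.78 CPM became 1.60, 2.53 and 1.46 CPM in CD4, and 15.9, 13.1 and 17.18 CPM became 1.29, 0.744 and 1.96 CPM in CD8 (-2.87 ± 0.50, adjusted p = 0.00051, and -3.54 ± 0.38, adjusted p = 1.42e-06). Tet3 was called lower in CD8 (-2.02 ± 0.46) and Tet2 in neither (0.14 ± 0.44 and -0.29 ± 0.35).

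**Figure D3:**
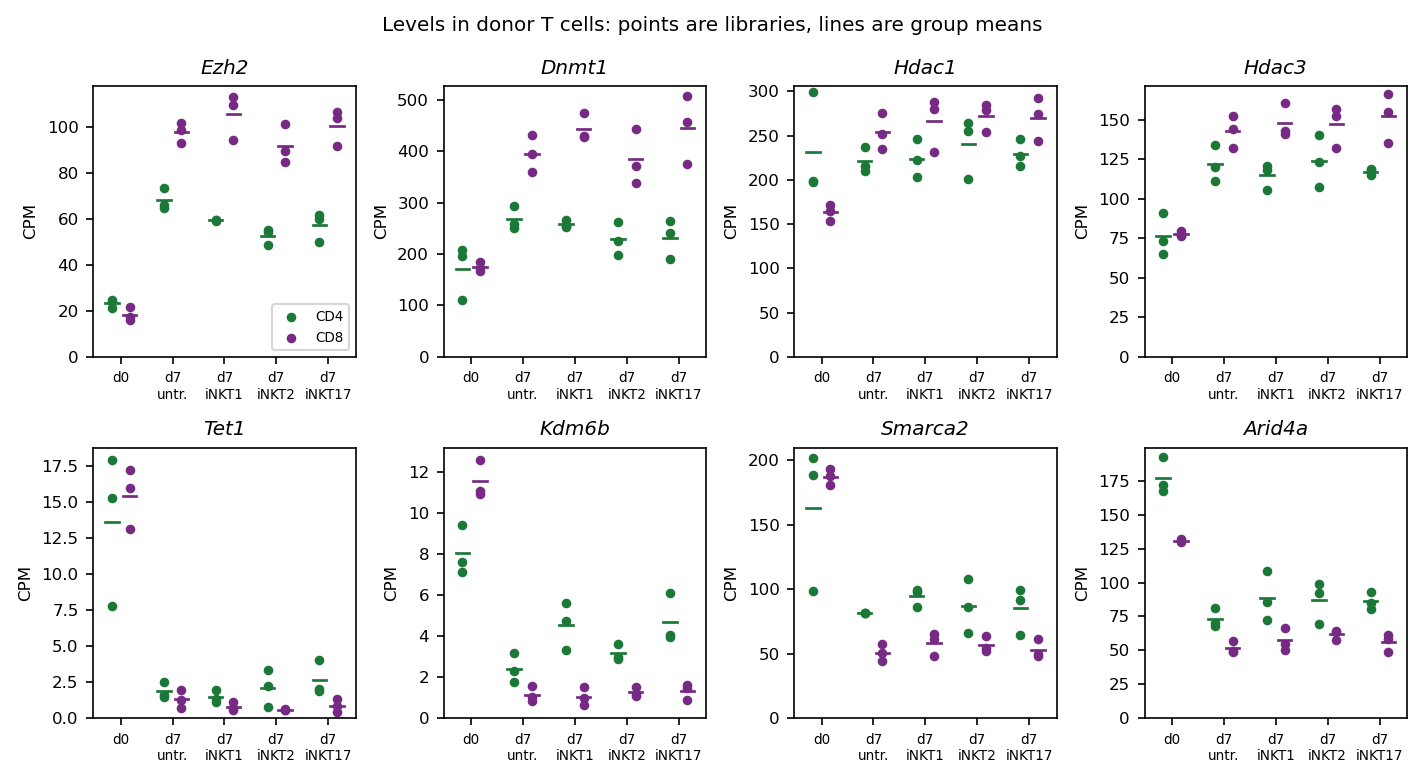
Levels of 8 genes (y axes, CPM) in each library of donor CD4 (green) and CD8 (purple) T cells at day 0 and at day 7 without treatment or with iNKT1, iNKT2 or iNKT17 cells (x axis); lines are group means. Ezh2, Dnmt1 and Hdac3 lie higher at day 7 than at day 0 and Tet1, Kdm6b, Smarca2 and Arid4a lower, and the 4 day 7 groups of a cell type overlap or lie close together.

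Arginine methyltransferases and remodelling genes showed no common direction. Of 7 tested Prmt genes, 2 rose and 2 fell in CD8, and 2 fell in CD4. Prmt2 and Prmt3 fell in both (-1.86 ± 0.29 and -0.69 ± 0.16 in CD4, -1.12 ± 0.19 and -0.86 ± 0.09 in CD8), and Prmt1, the main writer of asymmetric dimethylarginine, was called higher in CD8 (0.51 ± 0.13). Of 21 tested remodelling genes, 6 rose and 7 fell in CD8, and 1 rose and 3 fell in CD4. The 2 alternative ATPases of the SWI/SNF complex differed: Smarca2 stood at 193, 181 and 188 CPM in CD8 at day 0 and at 44.1, 50.3 and 57.8 CPM at day 7, and at 188, 202 and 98.3 CPM against 81.6, 81.3 and 81.3 CPM in CD4 (-1.88 ± 0.14, adjusted p = 2.19e-08, and -0.9998 ± 0.25, adjusted p = 0.00636). Smarca4 was not called in either (-0.03 ± 0.15 in CD8 and 0.30 ± 0.16 in CD4). Arid4a and Arid4b, DNA-binding partners of the Sin3 deacetylase complex, fell in both cell types. Arid4a stood at 167, 172 and 192 CPM against 70.2, 68.1 and 80.9 CPM in CD4 and at 130, 132 and 130 CPM against 57.1, 49.0 and 49.3 CPM in CD8, with no overlap (-1.28 ± 0.17 and -1.33 ± 0.12). Arid1a, the largest DNA-binding subunit of the BAF form of SWI/SNF, was called lower in CD8 (-1.23 ± 0.29). Arid5a, an RNA-binding protein known for stabilising cytokine transcripts, was called higher in CD4 only (0.67 ± 0.24, adjusted p = 0.047), and the call was lost without day 0 replicate 1 or 2 or untreated replicate 3 (adjusted p up to 0.22). Of the other listed remodelling subunits, 4 of 23 rose and 3 fell in CD4 and 8 of 24 rose and 8 fell in CD8. Chd9 rose by 1.222 ± 0.16 and 2.104 ± 0.10, and Phf10, a subunit of the PBAF form, by 0.94 ± 0.19 and 1.35 ± 0.10.

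When each of the 6 libraries of a day 7 comparison was left out in turn, 20 of the 32 CD4 calls and 49 of the 63 CD8 calls held in every fit. Leaving out day 0 CD8 replicates 1 and 2, which held the most B cell and myeloid RNA of the CD8 libraries, left 47 genes called (13 higher, 34 lower), with the remaining day 0 library assumed to vary like the other groups. Of all genes, 43.2% were called in that fit.

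The day 7 change differed between CD8 and CD4 cells for 7 of 93 genes when the difference itself was tested over all 30 libraries, 2 higher and 5 lower in CD8, against 8.78% of all genes (4.49% higher, 4.29% lower). The share called, both directions together, was not above that of all genes. Ezh2 rose further in CD8, by a difference of 0.84 ± 0.16 on the log2 scale (adjusted p = 0.00177). Hdac1, a catalytic subunit of the NuRD, Sin3 and CoREST complexes, stood at 153, 171 and 165 CPM against 275, 234 and 252 CPM in CD8 and at 197, 199 and 299 CPM against 210, 215 and 237 CPM in CD4 (difference 0.68 ± 0.20, adjusted p = 0.0331). Hdac4 went from 92.5, 79.1 and 83.9 CPM to 34.9, 42.3 and 46.2 CPM in CD8, while in CD4 it was 83.7, 79.9 and 58.2 CPM before and 69.3, 63.9 and 74.8 CPM after, with overlapping groups (difference -0.98 ± 0.24, adjusted p = 0.0116). Kdm6b (-1.59 ± 0.42, adjusted p = 0.0177), Kdm4b (-0.79 ± 0.23, adjusted p = 0.0295), Kdm5b (-0.92 ± 0.29, adjusted p = 0.0441) and Smarca2 (-0.91 ± 0.29, adjusted p = 0.0479) fell further in CD8. Of these 7, only Ezh2 and Hdac4 were called in all 12 fits that left out 1 library, and Kdm6b lost the call without untreated replicate 1 of either cell type (adjusted p up to 0.0689). The number of calls went from 2, without untreated CD8 replicate 1, to 11, without day 0 CD4 replicate 2. It was also 3 or 4 in the fits without day 0 CD8 replicate 1, 2 or 3, day 0 CD4 replicate 3, untreated CD4 replicate 1 or 2 or untreated CD8 replicate 2. Without the 5 CD4 libraries apart, 4 genes were called: Ezh2 (0.77, adjusted p = 0.00783), Smarca2 (-0.65, adjusted p = 0.0412), and in addition Dnmt1 (0.72, adjusted p = 0.013) and Hdac7 (-1.31, adjusted p = 0.0354). Of all genes, 6.23% were called in that fit (2.98% higher, 3.25% lower). Of the cell cycle genes, 17 of 28 rose further in CD8 by the same test.

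At day 0, CD8 and CD4 cells differed in 2 of 93 genes, 1 each way (8.59% of all genes were called, 4.07% higher and 4.52% lower). Hdac10, a polyamine deacetylase, was lower in CD8, with a mean of 35.3 against 68.4 CPM (-0.95 ± 0.15, adjusted p = 0.000126), and held in every fit that left out 1 library. Hdac7, which is known for its high expression in thymocytes, was higher in CD8 with a mean of 151 against 60.6 CPM (1.32 ± 0.40, adjusted p = 0.0402), a call lost without day 0 CD8 replicate 1 or 3 or day 0 CD4 replicate 3 (adjusted p up to 0.163). The CD4 replicate 3, one of the 5 libraries apart, held 14.995 CPM of Hdac7 where the other CD4 libraries held 80.6 and 86.1 CPM. The count of calls at day 0 ranged from 1 to 5 over those fits: 5 without day 0 CD4 replicate 1, 3 without day 0 CD4 replicate 2 or CD8 replicate 2, and 1 in the other 3. In untreated cells at day 7, 3 genes were higher and 8 lower in CD8, against 14.5% of all genes (7.78% higher, 6.67% lower). Sirt3, a mitochondrial deacetylase, stood at 33.8 against 15.1 CPM (1.16 ± 0.26, adjusted p = 0.00238), Ezh2 at 100.5 against 67.6 CPM (0.57 ± 0.12, adjusted p = 0.00106) and Dnmt1 at 405 against 265 CPM (0.61 ± 0.17, adjusted p = 0.0148). Kdm5b, a demethylase of histone H3 lysine 4, was the lower gene with the smallest p, at 26.0 against 61.8 CPM (-1.25 ± 0.21, adjusted p = 0.000123). Hdac4, Kdm3b, Hdac10, Ezh1, Kdm6b, Smarca2 and Arid4a were also lower, with log2 differences from -1.002 to -0.39. Ezh2, Sirt3 and Kdm5b held in all 6 fits that left out 1 library. Hdac4 lost its call without untreated CD8 replicate 1, and Dnmt1 without untreated CD4 replicate 1 or 3 or CD8 replicate 2. The count was 5 without untreated replicate 3 of CD4 or untreated replicate 1 of CD8, 6 without untreated replicate 1 of CD4 and 7 without untreated replicate 2 of CD8, against 22 without the 5 CD4 libraries apart (8 higher, 14 lower), a fit in which 19.0% of all genes were called (10.3% higher, 8.71% lower).

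Treatment of the hosts with iNKT cells left no chromatin enzyme gene called. By edgeR, 0 of 93 genes were called in CD4 or CD8 cells for iNKT1, iNKT2 or iNKT17 against untreated. Of all genes, 0% were called in the 3 CD4 comparisons and 0.158%, 0.110% and 0.206% in the 3 CD8 comparisons (lower 0.0686%, 0.0206% and 0.0686%, the rest higher). At an unadjusted p under 0.05, 8, 6 and 9 of the 93 passed in CD4 (8.60%, 6.45% and 9.68%, against 6.71%, 8.01% and 7.78% of all genes) and 8, 18 and 15 in CD8 (8.60%, 19.4% and 16.1%, against 12.3%, 12.8% and 13.5%), for iNKT1, iNKT2 and iNKT17 in that order. DESeq2 called Hdac6 lower in CD4 after iNKT1 (-0.55) and iNKT17 (-0.58), and in CD8 Kdm4c after iNKT1, Prmt2, Dnmt3a and Kdm5a after iNKT2, and Dnmt3a, Kdm5a and Sirt5 after iNKT17. The shares of all genes that DESeq2 called for the treatments are not given here. Without the 5 CD4 libraries apart, edgeR called Hdac10 higher in CD4 after iNKT1 (0.69, adjusted p = 0.0162) and iNKT17 (0.81, adjusted p = 0.0119), where 1.34% and 1.55% of all genes were called, and no member after iNKT2, where 0.216% were.

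Dnmt3a, singled out here after its values were seen, had a fitted log2 fold change above 0 in all 6 treatment comparisons, from 0.28 to 0.53, none of them called. In CD8 it stood at 32.9, 41.2 and 32.2 CPM without treatment, at 49.5, 36.5 and 43.1 CPM after iNKT1, at 50.7, 48.1 and 52.6 CPM after iNKT2 and at 54.3, 46.7 and 52.2 CPM after iNKT17. The iNKT2 and iNKT17 groups lay above the untreated group without overlap (0.51 ± 0.13, adjusted p = 0.122, and 0.53 ± 0.13, adjusted p = 0.1), and the iNKT1 group overlapped it. The day 0 CD8 values were 59.3, 50.6 and 64.3 CPM, and 4 treated libraries lay above the lowest of these and none above the others. In CD4 it stood at 48.5, 42.2 and 41.3 CPM without treatment, at 65.4, 52.4 and 71.1 CPM after iNKT1, at 57.5, 74.2 and 49.2 CPM after iNKT2 and at 66.4, 64.0 and 49.8 CPM after iNKT17, each group above the untreated one without overlap. Kdm5a, an eraser of the histone H3 lysine 4 mark chosen in the same way, had values below 0 in all 6, from -0.47 to -0.20. In CD8 it stood at 161, 188 and 171 CPM without treatment and at 118, 143 and 121 CPM after iNKT2 (-0.45 ± 0.11, adjusted p = 0.105), with no overlap. The 3 comparisons of a cell type share their untreated libraries, so their directions are not independent of each other. In CD4, groups failed to overlap for 21.5%, 16.1% and 18.3% of tested members after iNKT1, iNKT2 and iNKT17, against 19.8%, 14.4% and 16.6% of all genes. In CD8 it was 11.8%, 18.3% and 15.1%, against 18.5%, 15.8% and 16.3%. The share of all genes with the same direction in all 6 is not given here. Ezh2 in treated CD8 cells had mean levels of 106, 92.0 and 101 CPM against 98.0 CPM without treatment, with log2 differences of 0.11, -0.09 and 0.04. In CD4 its means were 59.6, 52.7 and 57.3 CPM against 68.3 CPM, with every treated library below the untreated ones and no call (-0.20 ± 0.12, -0.37 ± 0.12 and -0.25 ± 0.12, adjusted p = 0.874, 0.419 and 0.665).

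In the thymus, no chromatin enzyme gene was called by edgeR between iNKT sublineages. The counts were 0 of 89 in each of the 3 comparisons, where 1.29% of all genes were called for iNKT2 against iNKT1 (0.533% higher, 0.752% lower), 2.00% for iNKT17 against iNKT1 (0.986% higher, 1.01% lower) and 0.711% for iNKT17 against iNKT2 (0.436% higher, 0.275% lower). At an unadjusted p under 0.05, 11, 9 and 9 passed (12.4%, 10.1% and 10.1%, against 7.57%, 9.92% and 7.87% of all genes), and DESeq2 called 7, 8 and 6. The shares of all genes that DESeq2 called are not given here. Libraries of a sublineage differed widely in these genes: the higher library exceeded the lower more than 4-fold for 9 of 89 genes in iNKT1, 8 in iNKT2 and 17 in iNKT17, against 0 to 5 of 93 between the 3 libraries of a donor T cell group. Ezh2 shows this spread, with 20.7 and 0 CPM in iNKT1, 88.1 and 88.0 CPM in iNKT2 and 9.36 and 132 CPM in iNKT17. A count of 0 in that iNKT1 library allows up to 0.0891 CPM, for counting error only. The spread between libraries was not shown to be particular to the chromatin genes, since the share of all genes over 4-fold is not given here. Over all genes with counts, the 2 libraries had Spearman rank correlations of 0.852 in iNKT1, 0.862 in iNKT2 and 0.795 in iNKT17. Those within donor T cell groups ran from 0.946 to 0.966. The donor T cell and iNKT libraries were made with different kits.

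Values are given for genes of the key list or with a small p, none of them called. With 2 libraries a group, groups often fail to overlap: this held for 46 of 89 members for iNKT2 against iNKT1 (51.7%, and 44.1% of all genes), 41 for iNKT17 against iNKT1 (46.1%, and 40.5%) and 30 for iNKT17 against iNKT2 (33.7%, and 39.1%). Arid5a stood at 259 and 256 CPM in iNKT1, at 89.4 and 53.4 CPM in iNKT2 and at 107 and 111 CPM in iNKT17, with iNKT1 above both (iNKT2 against iNKT1 -1.85 ± 0.40, adjusted p = 0.07). Setd2, the writer of the trimethyl mark on histone H3 lysine 36 over transcribed genes, followed the same order at 233 and 284, 118 and 108, and 129 and 131 CPM (-1.19 ± 0.34, adjusted p = 0.207). Arid1a stood at 637 and 758, 295 and 300, and 491 and 212 CPM, with iNKT17 overlapping iNKT2. Kmt2e, a reader-type member of the Kmt family, stood at 382 and 401 CPM in iNKT1, at 132 and 106 CPM in iNKT2 and at 174 and 400 CPM in iNKT17, with both iNKT17 libraries above iNKT2 and overlapping iNKT1 (-1.72 ± 0.40 for iNKT2 against iNKT1, adjusted p = 0.0983). Hdac5 and Hdac7, both class IIa, had opposite signs in iNKT17 against iNKT1, and neither was called. Hdac5 stood at 381 and 457 CPM in iNKT17 against 170 and 80.5 CPM in iNKT1 (1.74 ± 0.44, adjusted p = 0.109), and Hdac7 at 126 and 84.1 CPM against 268 and 247 CPM (-1.29 ± 0.34, adjusted p = 0.122). Setdb1, a methyltransferase of histone H3 lysine 9, was highest in iNKT2 at 171 and 133 CPM and lowest in iNKT17 at 56.7 and 24.3 CPM (iNKT17 against iNKT2 -1.91 ± 0.54, adjusted p = 0.28). Kdm6a ran the other way, at 92.3 and 96.0 CPM in iNKT2 and 198 and 297 CPM in iNKT17 (1.39 ± 0.36, adjusted p = 0.213).

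The counts moved with single libraries, and the shares of all genes called in the fits below are not given here. Without iNKT17 replicate 1, 13 genes were called for iNKT17 against iNKT1 (2 higher, 11 lower) and 11 against iNKT2 (2 higher, 9 lower), with the lone iNKT17 library assumed to vary like the other groups. Without iNKT1 replicate 1 the count against iNKT1 was 2 for iNKT17 and 1 for iNKT2, and without iNKT2 replicate 1 it was 2 for iNKT2 against iNKT1. Sorted cells carried their markers: Cd3e lay between 455 and 598 CPM in all 6 libraries, and Tbx21 at 307 and 305 CPM in iNKT1 against at most 19.7 CPM elsewhere. The B and plasma cell list summed to 622 and 675 CPM in iNKT17 and to 0.0677 to 21.0 CPM elsewhere. Sdc1 alone held 616 and 675 CPM of it, while Jchain was at 0 in all 6 libraries, and Blnk was at 0 in 5 and at 0.0388 CPM in iNKT17 replicate 2.

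**Figure D4:**
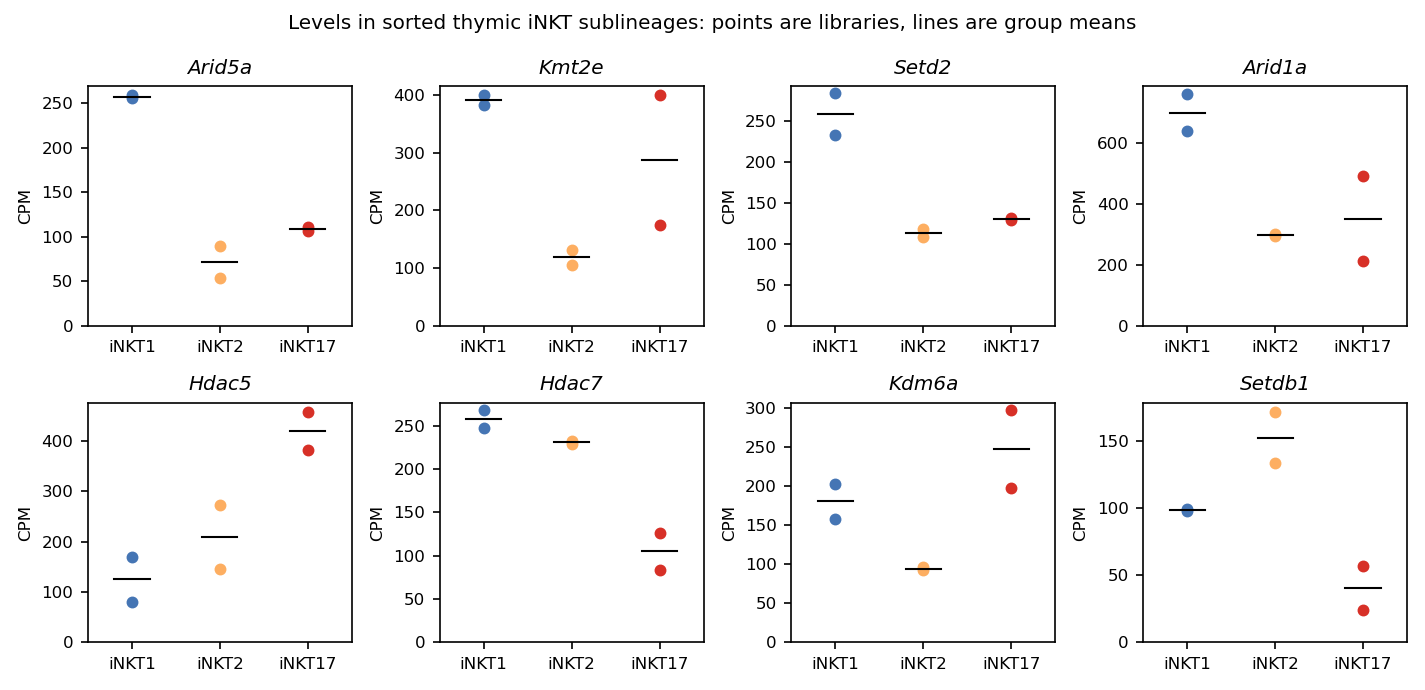
Levels of 8 genes (y axes, CPM) in the 2 RNA libraries of each thymic iNKT sublineage (x axis), 1 point per library, with lines at the group means. Arid5a and Setd2 lie highest in iNKT1, Hdac5 highest and Hdac7 lowest in iNKT17, and the 2 iNKT17 libraries lie far apart for Kmt2e and Arid1a.

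In total thymic iNKT cells sequenced singly, 144 barcodes of one thymus and 145 of the other held at least 500 genes, with no barcode shared between the thymi. No doublet caller was run. At least 1 molecule (UMI) was found for 88 and 89 of the 97 genes, and 25 genes held at least 20 in both. Kmt2e was at 78.1 CPM (exact Poisson 95% interval 60.3 to 99.5, counting error only) in one and at 79.3 CPM (61.9 to 100.03) in the other. Kdm6b was at 56.5 CPM (41.5 to 75.1) and 53.6 CPM (39.5 to 71.1). Ezh2 rested on 8 and 12 molecules, at 9.61 CPM (4.15 to 18.9) and 13.4 CPM (6.93 to 23.4), and the intervals of the 2 thymi overlapped for each of these genes. There is 1 library per mouse and no group to compare.

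In ATAC, 128 of 381 regions at these genes differed between iNKT2 and iNKT1, 111 between iNKT17 and iNKT1 and 25 between iNKT17 and iNKT2. The ATAC table held 381 regions that met a promoter window or the gene span of 97 members in RefSeq: 81 at promoters of 72 genes and 300 elsewhere in 73 genes. Of these, 77 also met the span of another gene. For iNKT2 against iNKT1, 74 regions gained and 54 lost accessibility, against 38.6% of all regions (22.3% higher, 16.3% lower). For iNKT17 against iNKT1 the counts were 64 and 47, against 37.1% of all regions (23.5% and 13.6%). Between iNKT17 and iNKT2 they were 13 and 12, against 8.34% (5.11% and 3.24%). In all 3 comparisons the share of member regions called was below that of all regions. These fits hold no replicate block, and with one the 3 counts were 206, 195 and 62. Leaving out iNKT1 replicate 2 lowered the first count to 58 and the second to 63, and leaving out iNKT2 replicate 1 lowered the first to 77. The second was 66 without iNKT1 replicate 1, and the third was 7 without iNKT2 replicate 2 and 6 without iNKT17 replicate 2. Calls that held in every fit numbered 52 of 128, 47 of 111 and 4 of 25. The shares of all regions called with the block, or with a library left out, are not given here.

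The direction depended on where a region lay. Of the 81 promoter regions, 1 gained and 19 lost accessibility from iNKT1 to iNKT2, and 0 gained and 11 lost it from iNKT1 to iNKT17 (median log2 fold changes -0.31 and -0.30). In the rest of the genes 73 and 64 of 300 regions were more accessible and 35 and 36 less. All 10389 regions at RefSeq promoters showed the same split, with 8.60% more and 28.6% less accessible in iNKT2 and 7.99% and 17.6% in iNKT17, against 25.5% and 13.5%, and 27.1% and 12.7%, of the other regions. The share of a library's counts that fell in promoter regions moved with this: it was 51.2% and 50.7% in iNKT1, 47.7% and 41.5% in iNKT2 and 47.2% and 45.1% in iNKT17. Its part in the promoter result was not tested. Between iNKT17 and iNKT2 no promoter region was called by edgeR, and 1 of 81 had an unadjusted p under 0.05.

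**Figure D5:**
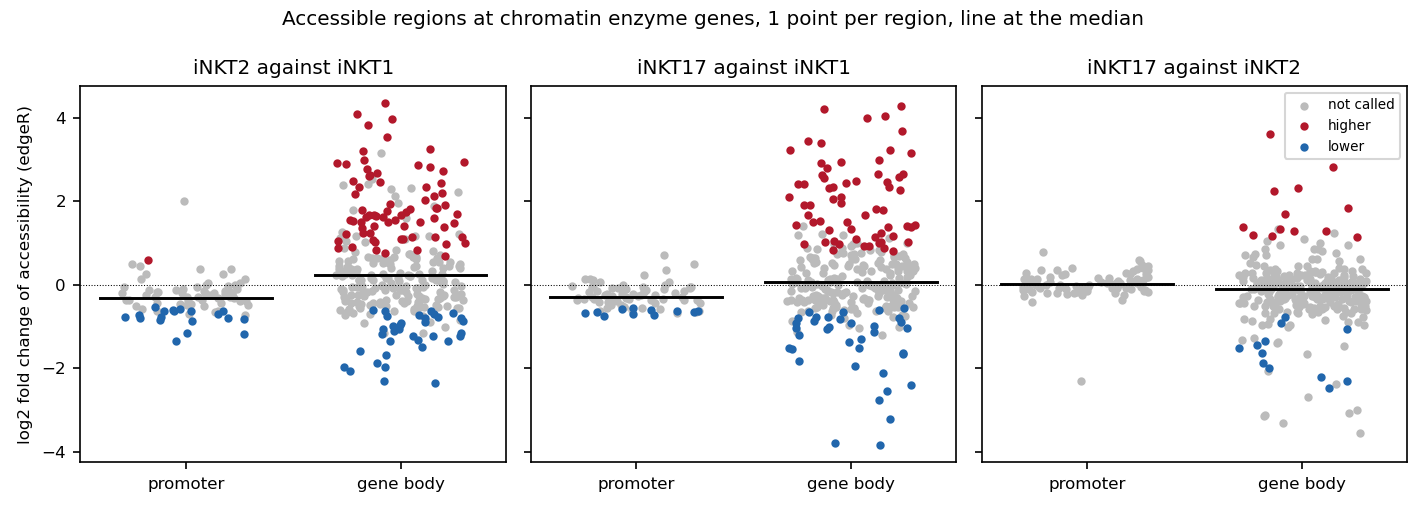
Log2 fold change of accessibility (y axis) of each region at these genes, at promoters or in the rest of the gene (x axis), for 3 comparisons of sublineages. Each point is 1 region, coloured by edgeR call, with the line at the median. Promoter regions centre at -0.31, -0.30 and 0.02, and regions in the rest of the gene spread from -3.85 to 4.36.

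Values of single regions with large changes follow, as CPM of the library's region counts, before TMM scaling. Coordinates are those of the deposited table, for which the submitters' processing notes name mm10 and GRCm38, and whether a region lies in an exon or an intron was not determined. A region in Kat8 (chr7:127922295-127923243) stood at 3.19 and 2.12 CPM in iNKT1, at 41.8 and 43.2 CPM in iNKT2 and at 25.4 and 20.5 CPM in iNKT17. It was lowest in iNKT1 (iNKT2 against iNKT1 3.84 ± 0.27, adjusted p = 0.000168). Arid5b, a DNA-binding partner of a lysine demethylase, held 19 regions, of which 9 were lower and 1 higher in iNKT2 against iNKT1. One of them (chr10:68240653-68241290) stood at 29.7 and 32.5 CPM in iNKT1, 7.94 and 5.87 CPM in iNKT2 and 4.74 and 5.66 CPM in iNKT17 (-2.35 ± 0.25, adjusted p = 0.000307). Its RNA was also highest in iNKT1, at 99.2 and 92.0 CPM against 23.4 and 30.2, and 18.3 and 40.1 CPM, without being called (iNKT2 against iNKT1 -1.83 ± 0.78, adjusted p = 0.615).

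Hdac4 held regions that moved both ways within the one gene. Of its 18 regions, 4 were higher and 6 lower in iNKT2 against iNKT1. The region chr1:92118994-92119778 stood at 1.91 and 2.16, 12.4 and 8.87, and 18.8 and 22.3 CPM in iNKT1, iNKT2 and iNKT17, with iNKT1 lowest. The region chr1:92063931-92064817 stood at 57.3 and 56.0, 15.7 and 16.8, and 15.3 and 20.4 CPM, with iNKT1 highest, and chr1:92069337-92069972 fell in steps from 19.6 and 19.6 to 8.29 and 3.23 and to 1.31 and 1.72 CPM. Kat6b, an acetyltransferase of histone H3, moved one way: against iNKT1, 7 of 11 regions were higher in iNKT2, 8 were higher in iNKT17, and none was lower. Arid1b, the counterpart of Arid1a, had 14 of 29 regions more accessible in each and 2 and 3 less. A region in Smarca2 (chr19:26683629-26684064) rose in steps from 0.628 and 0.549 CPM in iNKT1 to 3.68 and 3.16 CPM in iNKT2 and 10.6 and 14.2 CPM in iNKT17. The last step (1.85 ± 0.31, adjusted p = 0.00861) was lost without iNKT17 replicate 2 (adjusted p = 0.0728).

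Accessibility is given here for Arid5a and Hdac7 and for the promoters of Ezh2 and Dnmt1. Regions at Setd2, Arid1a, Kmt2e, Hdac5, Setdb1 and Kdm6a, also named above for their iNKT RNA, are not given here. At Arid5a, 1 of 3 regions (chr1:36309401-36309929) was lower in both iNKT2 and iNKT17, at 38.5 and 41.3, 19.5 and 21.7, and 13.9 and 17.4 CPM (-1.11 ± 0.23, adjusted p = 0.00587, and -1.52 ± 0.23, adjusted p = 0.00106), the same order as its RNA between iNKT1 and the rest. At Hdac7, 0 of 7 regions were called for iNKT2 against iNKT1 and 2 were lower for iNKT17 against iNKT1. The promoter of Ezh2 (chr6:47594138-47595714), which spans the letters shown above, was called lower in iNKT2 than in iNKT1 (-0.57, adjusted p = 0.0323), at 94.0 and 100.8 CPM in iNKT1, 74.7 and 72.8 CPM in iNKT2 and 79.3 and 78.6 CPM in iNKT17. The region over the Dnmt1 window (chr9:20952320-20953200) was not called, at 71.3 and 72.0, 70.5 and 71.4, and 72.6 and 68.0 CPM. The Ezh2 promoter thus held counts in all 6 ATAC libraries, also those of iNKT1, where 1 of 2 RNA libraries held no count of the gene.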

How the data were processed

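The deposited values are raw counts per gene (RNA), per region (ATAC) and per gene in each barcode (single-cell UMIs), made by the authors. The submitters' processing notes name FastQC 0.11.7, STAR 2.5.4, kallisto, Cell Ranger 2.1, HOMER 4.9.1, bedtools 2.27.1, Seurat 3 and DESeq2 1.22.2, among others, with builds mm10 and GRCm38, with no role for each. Strand use in counting is not given in the sources used here. A stranded TruSeq kit served for iNKT RNA and SMARTer v4 with Nextera XT for donor T cells, per the labels' protocols.

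Symbols came from the single-cell gene table. Of 102 symbols that matched the rule, 2 were left out by it and 3 (Dnmt3aos, Dnmt3bos and Kdm6bos) were absent from the donor T cell table. The members and the lists of partners and markers were chosen with earlier results of these data known. All groups of a table were fitted together with edgeR 4.0.16 (R 4.3.3; filterByExpr by group, TMM scaling, robust quasi-likelihood, Benjamini-Hochberg over all features tested: 12372 genes for iNKT RNA, 15031 for CD4, 14586 for CD8, 15601 for both, 54520 of 54524 ATAC regions), and CPM of RNA uses the TMM factors. The comparison of CD4 with CD8 used its own fit, so its mean CPM differs slightly from the per-library values. SE was computed from the F statistic. The ATAC table names no genes, so regions were assigned by RefSeq GRCm38 gene spans and promoter windows, where the design had foreseen the table's own names. Donor T cell columns carry no title prefix, so no term for it was fitted, and the 3 CD8 day 0 columns share a name and are numbered in column order. No column was left unmatched (0). The CD4pos and CD4neg iNKT1 libraries were not analysed here. Statistics were tested on simulated data. Genes are named by a rule: a list of key members, up to 10 called members per direction with the smallest p and a mean log2 CPM not under 3, and up to 4 per partner list. Other names were chosen after their values were seen. Alternatives were no low-count filter, DESeq2 1.42.0, fits of only the groups compared, a replicate block and leaving out libraries. Same-numbered libraries are not said to be paired, and no main result has a replicate block.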

Additional observations from a re-analysis of the deposited data

Results flagged for a closer look

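The day 7 change of 7 of 93 tested genes differed between CD8 and CD4 donor T cells when the difference itself was tested (edgeR, all 30 libraries), against 8.78% of all genes. The share of these genes called was thus not above that of all genes. On the log2 scale, CD8 minus CD4, the differences were 0.84 for Ezh2 and 0.68 for Hdac1, and -0.98 for Hdac4, -1.59 for Kdm6b, -0.79 for Kdm4b, -0.92 for Kdm5b and -0.91 for Smarca2. Ezh2 and Hdac4 kept the call in all 12 fits that left out 1 library, and the call was lost in 2 fits for Kdm6b, 6 for Hdac1, 6 for Kdm4b, 9 for Smarca2 and 10 for Kdm5b. Without the 5 CD4 libraries that stood apart, Ezh2 and Smarca2 kept the call.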

How the results depend on the processing

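Counts of called genes are given by setting, without the share of all genes called in that setting unless it is given above. For iNKT2 against iNKT1, iNKT17 against iNKT1 and iNKT17 against iNKT2, RNA calls went from 0 each to 3, 3 and 2 without the low-count filter and to 7, 8 and 6 with DESeq2, and to 2 for the first when only the groups compared were fitted. They ranged from 0 to 2, 0 to 13 and 0 to 11 when 1 library was left out. With a replicate block, the numbers shared by the labels being no stated pairing, RNA calls stayed at 0 in all 3, and ATAC regions called went from 128, 111 and 25 to 206, 195 and 62. Deviations of same-numbered ATAC libraries correlated at 0.602, 0.438 and 0.515 and those of RNA libraries at -0.125, 0.0606 and -0.0395, and crossing the iNKT2 numbers in a block, chosen after seeing the data, left the count at 0. With 1 library left out, ATAC counts ranged from 58 to 101, 63 to 84 and 6 to 19.

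For CD4 at day 7 the count of 32 became 21 when only the groups compared were fitted and 57 without the 5 libraries apart (chosen after seeing the data), and lay between 23 and 42 with 1 library left out. For CD8 the count of 63 lay between 54 and 64. CD8 against CD4 at day 0 gave 2 genes, 1 without the filter, 4 with DESeq2, 1 with only the groups compared, 4 without the 5 libraries, and 1 to 5 with 1 left out. At day 7 it gave 11, 22 without the 5 libraries, and 5 to 10 with 1 left out. The difference between the day 7 changes gave 7, 3 with only the groups compared, 4 without the 5 libraries, and 2 to 11 with 1 left out. For treatments, DESeq2 called 1 gene in CD4 for iNKT1 and 1 for iNKT17, and 1, 3 and 3 in CD8, and without the 5 libraries edgeR called 1 in CD4 for iNKT1 and 1 for iNKT17. With 1 library left out, all 6 treatment counts stayed at 0 (range 0 to 0). Of 1238 values of named genes under an alternative, 1095 kept direction and call, 77 lost the call, 65 gained it, and 1 reversed: Hdac10 in CD8 after iNKT1, to -0.0014 with 1 library left out. The 1095 include genes that were not called and stayed so, such as 54 values for CD4 after iNKT1. They are therefore not a count of calls that held. Causes were not tested. Donor T cell columns other than CD8 at day 0 carry numbers 1 to 3, not tied to the labels. Deviations of same-numbered columns correlated from -0.212 to 0.309, over 0.1 for 11 of 24 pairs and for every pair in 1 of 8 comparisons (CD8 after iNKT2). A replicate block on these numbers, chosen after seeing the data (for CD8, and for CD8 against CD4, in day 7 groups only), gave 33 genes for CD4 at day 7, 14 for CD8 against CD4 at day 7 and 0 for each of the 6 treatment comparisons. No paired analysis was possible because the 3 columns of CD8 at day 0 share a name, for comparisons with that group. Depth limits genes such as Hdac9 and Kdm6b, at a few CPM or less at day 7.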
